A study of Mus musculus with 31 samples.

Results

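Late maturation of mouse embryoid bodies (EBs) was examined by comparing 6 arrays of EBs at day 14 with 6 arrays of EBs at day 8, that is 12 of the 31 arrays in the series, chosen by their titles and with no use of measured values. B6 mouse embryonic stem (ES) cells had been maintained on mouse embryonic feeder cells (MEFs) in fetal calf serum with leukemia inhibitory factor (LIF), then depleted of MEFs and passaged on gelatin. The EBs grew in suspension without LIF from the gelatin cultures, so that day 8 and day 14 EBs share cell line and culture method and are labelled by time. Whether both days came from the same seeding is not stated. The other arrays are 7 of EBs at day 4, 6 of ES cells on gelatin and 6 of ES cells sorted for an Oct4-GFP reporter (GFP under control of the gene that encodes OCT4). They place the 12 in time, and they also entered the estimate of spread behind every p-value. Total RNA was amplified in a two-round linear procedure and hybridised to the Affymetrix MgU74Av2 array. An EB is a mixture of cell types measured as 1 RNA pool, so a larger number of cells of a type and more RNA per cell cannot be told apart. The study's methods state 6 biological samples per time point, but nothing in the labels gives their cultures or dishes. The p-values therefore measure the spread between these samples, which may in part be technical.

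EBs are floating aggregates in which ES cells leave the pluripotent state once LIF is gone. An outer layer resembling visceral endoderm forms early and secretes serum proteins, as the yolk sac and later the liver do, while the inner cells pass through a primitive-streak-like state and give rise to mesoderm, including heart muscle, blood and connective tissue, and to neural ectoderm. Pluripotency is held by a network of transcription factors around OCT4 (Pou5f1), SOX2 and NANOG, whose transcripts decline at different times as the cells differentiate.

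The day 8 EBs were the less uniform group. Along the first principal component of the 12 arrays, which held 66.8% of the variance, the day 14 arrays lay between 14.5 and 27.0, day 8 replicates 1, 3 and 5 between -37.8 and -32.7, replicate 6 at -18.3, and replicates 2 and 4 at 3.8 and -1.6. Over all probe sets, replicates 2 and 4 correlated with single day 14 arrays at 0.9815 to 0.9899, replicates 1, 3 and 5 at 0.9488 to 0.9681 and replicate 6 at 0.9683 to 0.9794, and the labels give no batch that names these arrays. At day 4, replicates 6 and 7 correlated with the mean of the day 8 arrays at 0.9796 and 0.9859 and the 5 other replicates at 0.9625 to 0.9687. For Gapdh, the ratio of the 3' to the 5' control probe set, a measure of RNA integrity, was 2.31 ± 0.188 at day 8 and 2.43 ± 0.219 at day 14 (mean ± SD, n = 6 each), and that of the beta-actin control was 2.98 ± 0.292 and 2.48 ± 0.311. The main counts are therefore also given without the day 8 arrays that stand apart, an alternative chosen after the data were seen.

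**Figure D1:**
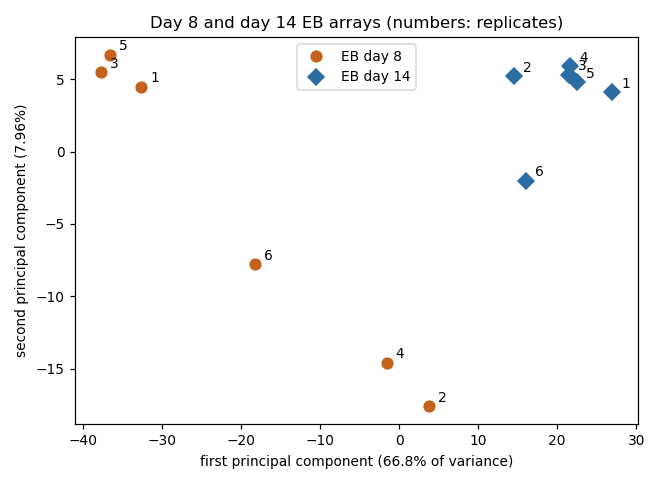
Position of the 12 arrays on the first and second principal components of their log2 signals, in log2 units, with the share of variance on each axis. Numbers are replicates, orange is day 8 and blue is day 14. The day 14 arrays lie together at 14.5 to 27.0 on the first component, whereas the day 8 arrays spread from -37.8 to 3.8.

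More genes rose than fell between day 8 and day 14, and more of the rises were at least 2-fold. Of 12422 probe sets, 2493 (20.1%) were higher and 1475 (11.9%) lower at day 14 (limma, adjusted p under 0.05), and 274 (2.21%) were at least 2-fold higher against 58 (0.467%) at least 2-fold lower. With each gene represented by its brightest probe set, 1744 of 8251 genes (21.1%) were higher and 1075 (13.0%) lower, and 184 (2.23%) and 43 (0.521%) were so by at least 2-fold. The counts of the gene lists below are to be read beside these shares of 21.1% and 13.0%. All 6 day 14 arrays lay above all 6 day 8 arrays in 699 genes (8.47%) and below them in 521 (6.31%). The split depends on scaling: higher calls made up 62.8% of all called probe sets as deposited, 42.2% (1808 higher, 2473 lower) after quantile normalization and 35.3% (1721 higher, 3153 lower) after centring on array medians, and no probe set called higher became called lower or the reverse. Those steps moved the median difference of all probe sets from 0.03 to -0.03 and -0.06 on the log2 scale. Without day 4 replicates 6 and 7, which enter this comparison only through the estimate of spread, there were 2802 higher and 1737 lower. Without day 8 replicates 2 and 4 there were 2895 higher and 1943 lower, and without replicates 1, 3 and 5 there were 701 and 476, of which 671 and 440 were among the calls on all arrays. Of the 166 genes chosen for naming by rule, 81 no longer passed without replicates 1, 3 and 5, where the day 8 group has only 3 arrays. The differences of these 81 kept a median of 62.0% of their size on the log2 scale, and 20 kept at least 75%. Where a lost call is given in what follows, the value in parentheses beside the gene is the log2 difference that remained.

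Combined with the preceding step from day 4 to day 8, 313 genes (3.79%) were still rising, that is higher at day 8 than at day 4 and higher again at day 14. A further 1223 (14.8%) were higher at day 14 with no call between day 4 and day 8, and 208 (2.52%) had first dropped at day 8. In the other direction 763 (9.25%) were lower at day 14 with no earlier call, 149 (1.81%) fell at both steps, and 163 (1.98%) peaked at day 8. Both steps share the day 8 arrays, so a high or low day 8 mean enters both. Without day 4 replicates 6 and 7 the genes still rising numbered 383 (285 shared with the first list), those that peaked 399 (162 shared) and those that dipped 569 (203 shared).

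**Figure D2:**
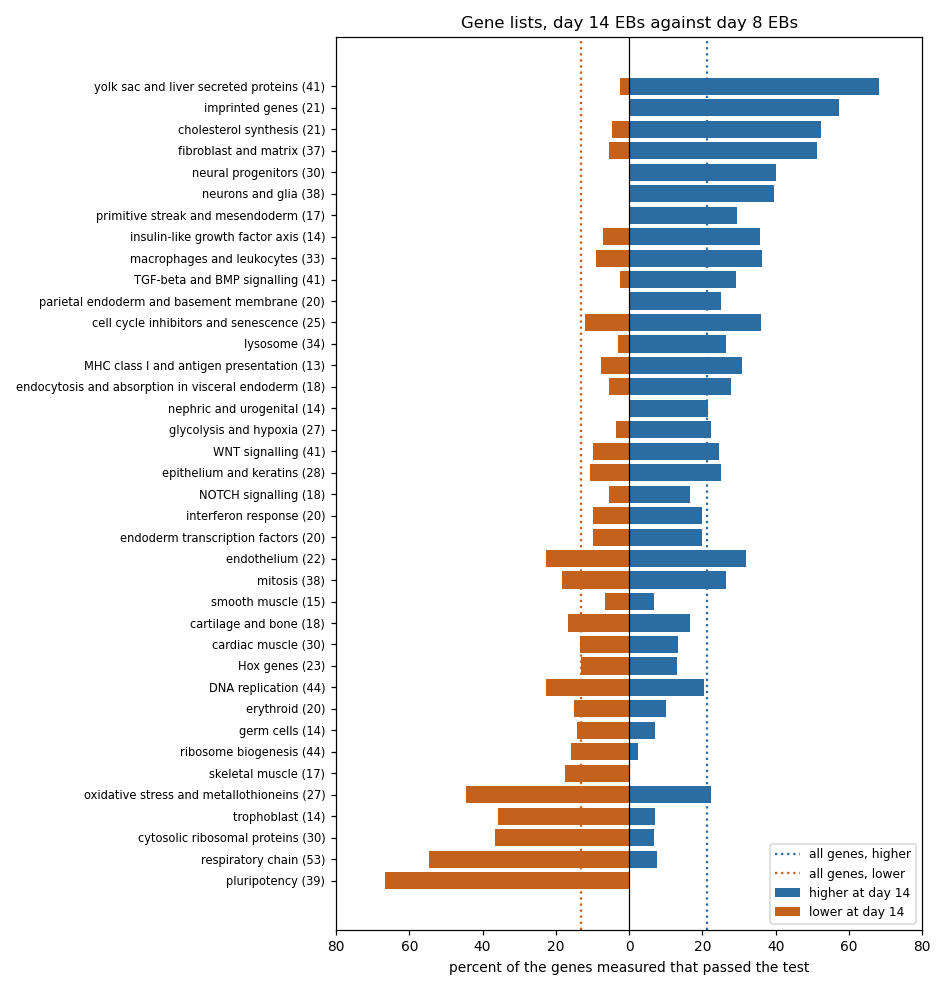
Share of each gene list's measured members higher (right) and lower (left) at day 14 than at day 8, in percent, with the number of members beside each name. The dotted lines mark the shares over all 8251 genes, 21.1% higher and 13.0% lower. Yolk sac and liver secreted proteins reach the largest share of higher genes, and pluripotency genes the largest share of lower genes.

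Connective tissue genes gave 4 of the 10 largest rises among genes whose groups did not overlap (Dcn, Postn, Lum and Col1a2). Periostin, lumican and decorin are secreted proteins that organise collagen, and Col3a1, Col1a2 and Col1a1 encode the fibrillar collagens of loose connective tissue. Dcn signal had a median of 617 (339 to 1247) at day 8 and a median of 4446 (2901 to 6754) at day 14, where the values in parentheses here and below are the lowest and highest array of the group, and the groups did not overlap. This was a 7.31-fold difference (2.87 ± 0.31 on the log2 scale, ± SE, limma adjusted p = 2.26e-07). For Postn the day 8 arrays had a median of 800.3 (240.4 to 2569) and the day 14 arrays a median of 4748 (3433 to 5349), with day 8 replicate 2 the nearest to day 14, a 6.63-fold rise (2.73 ± 0.38, adjusted p = 6.64e-06). Lum went from a median of 1027 (276 to 3036) to a median of 5228 (4331 to 6629.7), a log2 difference of 2.63 ± 0.38 (adjusted p = 1.06e-05), and Col3a1 from a median of 1724 (550.5 to 3493) to a median of 6686 (4575 to 7345), a log2 difference of 2.12 ± 0.31 (adjusted p = 1.25e-05). In these genes too every day 14 array exceeded every day 8 array. Postn, Lum and Col3a1 had already risen from day 4 to day 8, by 2.20, 1.82 and 1.94 on the log2 scale, whereas Dcn had not (0.19, adjusted p = 0.717). Without day 8 replicates 1, 3 and 5 the 4 differences shrank to 2.13, 1.66, 1.31 and 1.17, each still past the threshold. Col1a2 was 2.30 ± 0.31 higher on its brightest probe set, but a dimmer one differed by 0.07 (adjusted p = 0.497).

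Over the fibroblast and matrix list, 19 of 37 measured genes were higher and 2 lower at day 14, with a median difference of 0.30 on the log2 scale against 0.03 over all genes. The count was 17 higher and 3 lower without day 8 replicates 2 and 4, and 11 and 0 without replicates 1, 3 and 5. The rises included Col5a2 (2.27), the matrix glycoprotein Tnc (2.22), the collagen cross-linking enzyme Lox (2.00), Col1a1 (1.15) and the collagen chaperone Serpinh1 (0.55). Mfap5 (-0.82) and Mgp (-0.71), which encode a microfibril protein and a calcification inhibitor, fell. Fn1 (0.23), Pdgfrb (0.17) and Col6a1 (0.13) did not pass. The summed signal of the 37 genes was 34620 to 52420 per array at day 8 and 60910 to 84900 at day 14, and the ES cells on gelatin, which had been grown on feeders, gave 76830 to 115700. The part of feeder fibroblasts in these levels was not tested. Basement membrane genes showed 5 of 20 higher (25%, against 21.1% of all genes) and 0 lower (5 and 1 after quantile normalization). Laminin Lamb1 (1.36 ± 0.18) and the parathyroid hormone receptor Pth1r (0.90 ± 0.22) led, and Col4a2 was higher by 0.47. Of 18 cartilage and bone genes 3 were higher and 3 lower (2 and 5 after quantile normalization), all by less than 2-fold: Cdh11 (0.78), Col11a1 (0.44) and Msx1 rose, and Col9a2 (-0.38), Acan (-0.22) and Col2a1 fell. The smooth muscle list had 1 of 15 higher (Cnn2, 0.34) and 1 lower (Myh11, -0.31). Pth1r (0.56), Acan (-0.09) and Cnn2 (0.19) no longer passed without day 8 replicates 1, 3 and 5, nor did Col4a2 (0.47) and Myh11 (-0.31), whose differences were as large as over all arrays.

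**Figure D3:**
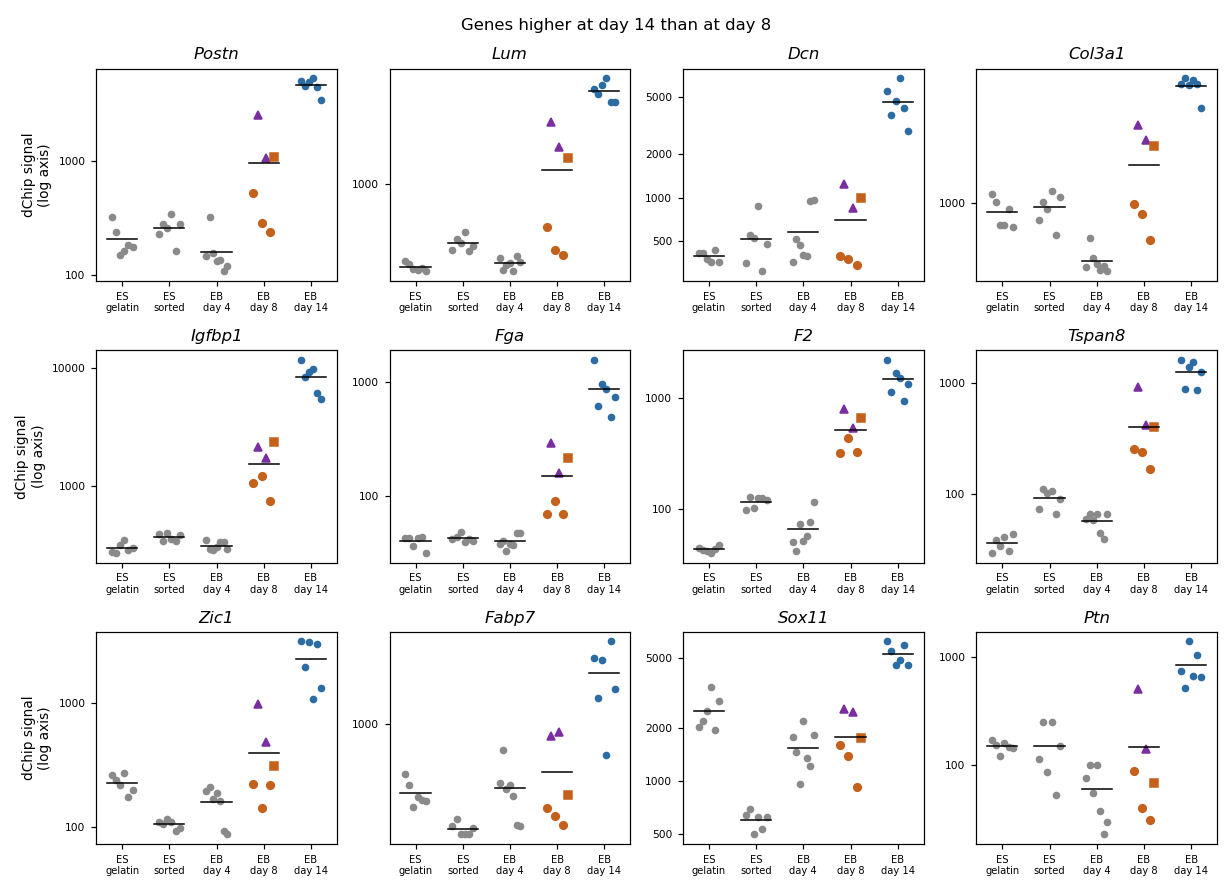
Signal of 12 genes in every array, on a log axis, from ES cells through day 4, day 8 and day 14 EBs. Points are arrays and black lines group means. Orange circles are day 8 replicates 1, 3 and 5, the orange square is replicate 6 and purple triangles are replicates 2 and 4. Matrix genes such as Lum and secreted endoderm proteins such as Igfbp1 rise at both steps, whereas Dcn, Sox11 and Ptn had no call between day 4 and day 8.

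Genes for proteins secreted by the yolk sac and liver formed the list with the largest share of rises, 28 of 41 higher and 1 lower, with a median difference of 0.41. The count was 28 higher and 1 lower without day 8 replicates 2 and 4, 16 and 1 without replicates 1, 3 and 5, and 22 and 1 after quantile normalization. Fibrinogen, the clot precursor, is built from the chains encoded by Fga, Fgb and Fgg. Fga lay at a median of 124 (69.6 to 293) at day 8 and a median of 806 (493 to 1568) at day 14, with no overlap, a 6.37-fold rise (2.67 ± 0.26, adjusted p = 4.12e-08), and Fgb and Fgg were higher by 1.27 and 1.36. Igfbp1, a secreted binding protein for insulin-like growth factors, moved from a median of 1466 (752 to 2369.5) to a median of 8715 (5439 to 11610), 5.66-fold or 2.50 ± 0.20 on the log2 scale (adjusted p = 1.54e-09). It had already risen by 2.18 between day 4 and day 8, and it stayed past the threshold in all alternatives, though a dimmer probe set differed by 0.22 (adjusted p = 0.0612). F2, which encodes prothrombin, rose by 1.54 ± 0.20 (adjusted p = 2.39e-06) from a median of 482 (316 to 790.4) to a median of 1417 (927 to 2177), after a larger step of 2.78 from day 4 to day 8. Other members that rose were the protease inhibitor Serpina1b (1.66), kininogen Kng1 (1.65), apolipoprotein B (Apob, 1.04), Apoa1 (0.86), albumin (Alb, 0.87), alpha-fetoprotein (Afp, 0.56) and transthyretin (Ttr, 0.52). Apoc1 fell (-0.40), and the retinol carrier Rbp4 (0.49), Spink1 (0.06) and plasminogen (Plg, -0.02) did not pass. Among the 28, 15 belonged to the genes still rising.

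Promoter sequence was set beside this list because binding sites of the liver factor HNF1 are long described in front of albumin and fibrinogen genes. RefSeq windows from 250 bases before to 50 after the start (GRCm38.p6) matched 6576 of the 8251 genes. The half-sites GTTAAT and ATTAAC with 1 free base between them were read on either strand with up to 3 mismatches. A gene was counted if any of its windows matched. They were found in 427 of these genes (6.49%) and in 12 of the 33 genes of the yolk sac and liver list with a window (36.4%). Of its members higher at day 14, 10 of the 24 with a window matched (41.7%). The letters were chosen with these results known, and a match is a description and neither a shown binding site nor a cause. The 120 bases before the start are shown for 5 members, 5' to 3' on the strand of the gene, with the matching letters in capitals:
Igfbp1, chr11:7197667-7197786, plus strand: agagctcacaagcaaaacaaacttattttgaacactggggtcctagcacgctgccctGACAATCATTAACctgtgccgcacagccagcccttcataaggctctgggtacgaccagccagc
Fga, chr3:83026033-83026152, plus strand: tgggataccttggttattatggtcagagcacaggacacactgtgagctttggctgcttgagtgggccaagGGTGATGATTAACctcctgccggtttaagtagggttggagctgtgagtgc
Fgb, chr3:83049864-83049983, minus strand: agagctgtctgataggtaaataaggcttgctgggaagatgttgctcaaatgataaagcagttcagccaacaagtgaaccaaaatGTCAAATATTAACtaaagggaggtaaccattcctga
Afp, chr5:90490594-90490713, plus strand: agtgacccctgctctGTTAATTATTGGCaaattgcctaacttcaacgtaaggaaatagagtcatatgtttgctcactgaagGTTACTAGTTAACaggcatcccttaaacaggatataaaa
Alb, chr5:90460750-90460869, plus strand: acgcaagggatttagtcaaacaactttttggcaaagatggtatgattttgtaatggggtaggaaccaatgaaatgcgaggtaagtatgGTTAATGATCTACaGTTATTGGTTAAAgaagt
The match begins 63 bases before the start in Igfbp1, 50 in Fga and 36 in Fgb, each with 2 mismatches, while Afp and Alb hold a pair of matches each. Hnf4a (-0.15), Gata4 (-0.11), Gata6 (0.10) and Sox17 (0.10), regulators of endoderm, did not pass. In the list of endoderm transcription factors 4 of 20 were higher and 2 lower (4 and 5 after quantile normalization), near the shares of all genes (21.1% and 13.0%). Foxa1 (0.61 ± 0.16), Foxa3 (0.47 ± 0.13), Foxa2 (0.40 ± 0.07) and the nuclear receptor Nr2f2 (1.40 ± 0.15) rose, and the members that fell were Hhex (-0.23) and Nr5a2 (-0.96 ± 0.22), the latter also a pluripotency gene. Foxa1 (0.27), Foxa3 (0.13) and Nr5a2 (-0.64) no longer passed without day 8 replicates 1, 3 and 5. Among 18 genes of endocytosis and absorption, with which visceral endoderm takes up maternal protein, 5 were higher and 1 lower (2 and 1 after quantile normalization, 2 and 2 with median centring). The scaffold gene Pdzk1 led (1.48 ± 0.19, adjusted p = 2.37e-06), while Cubn (0.99) and Dab2 (0.41) did not pass. Tspan8, a tetraspanin gene outside these lists, rose at both steps, from a median of 328 (168 to 912) at day 8 to a median of 1308 (856 to 1605) at day 14 with overlap of the groups (1.83 ± 0.24, adjusted p = 3.9e-06).

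Some neural genes rose after day 8. Among 30 genes of neural progenitors 12 were higher and none lower (median 0.15; 6 higher without day 8 replicates 1, 3 and 5), and among 38 genes of neurons and glia 15 were higher and none lower (median 0.12; 8 higher without those arrays). Median centring gave 9 higher and 2 lower in the progenitor list and 12 and 4 in the neuronal and glial list. The summed signal of the neuronal and glial list was 23720 to 26610 per array at day 8 and 25810 to 29600 at day 14. That range overlapped day 4 (25650 to 30670) and lay below the ES cells on gelatin (32070 to 35410). The progenitor list gave 19950 to 27880 at day 8 and 28860 to 42460 at day 14. Ptn, which encodes the growth factor pleiotrophin, had the largest rise of all genes whose groups did not overlap, from a median of 78.4 (31.02 to 509) to a median of 707 (522 to 1394), 7.37-fold or 2.88 ± 0.40 on the log2 scale (adjusted p = 5.6e-06). The highest day 8 array, replicate 2, lay just below the lowest day 14 array. Zic1, a zinc finger factor of the dorsal neural tube, went from a median of 268 (142 to 969.6) to a median of 2462 (1073 to 3110.1) with no overlap (2.70 ± 0.33, adjusted p = 1.25e-06), and Sox11, a factor of early neurons, from a median of 1681 (923 to 2546) to a median of 5149 (4536 to 6191), a log2 difference of 1.63 ± 0.20 (adjusted p = 1.2e-06). The radial glia fatty acid binding protein gene Fabp7 had a median of 249 (160.4 to 873) at day 8 and a median of 2532 (569 to 4447) at day 14 and overlapped between the groups (2.65 ± 0.43, adjusted p = 3.83e-05). Of these, only Zic1 had also passed between day 4 and day 8 (1.07, adjusted p = 0.015), and not without day 4 replicates 6 and 7 (0.78, adjusted p = 0.0682). Further progenitor genes that rose were Cdh2 (1.63), Pax6 (1.29) and Ncam1 (1.06). In the neuronal list the rises were smaller: neurofilament Nefl (0.88 ± 0.19), the vesicular GABA transporter Slc32a1 (0.69 ± 0.16), doublecortin Dcx (0.67 ± 0.13) and Gap43 (0.61 ± 0.18), of which Nefl and Slc32a1 were among the dimmest probe sets and lost the call with a floor at the 25th percentile. Nefl (0.62) and Gap43 (0.33) did so too without day 8 replicates 1, 3 and 5. Sox1 (-0.07), Nes (0.05), Tubb3 (0.17), Map2 (0.11) and the glial marker Gfap (0.06) did not pass. Chgb, the gene of a secretory granule protein, and Zfp503, a zinc finger gene, were outside the lists and rose by 2.35 ± 0.22 and 2.44 ± 0.38.

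Imprinted genes, which are expressed from 1 parental allele and act largely in fetal growth, had a median difference of 0.55, the highest of all lists. Of 21 measured, 12 were higher and none lower (14 without day 8 replicates 2 and 4, 6 without replicates 1, 3 and 5). Dlk1, a secreted and membrane inhibitor of differentiation, lay at a median of 1464 (747 to 2476) at day 8 and a median of 3280.2 (2484 to 4060) at day 14, with no overlap (1.25 ± 0.22, adjusted p = 8.36e-05). Cdkn1c, a cyclin-dependent kinase inhibitor, rose by 1.24 ± 0.28 (adjusted p = 0.00139) and lost the call without day 8 replicates 1, 3 and 5 (0.70). Magel2 (0.96), Ndn (0.89), Plagl1 (0.76), Peg10 (0.67), Mest (0.67), Peg3 (0.64) and Igf2r (0.49) rose too, while Igf2 (0.47, adjusted p = 0.0896), Meg3 (0.04) and Grb10 (0.05) did not pass. Dcn is also a member of this list. In the insulin-like growth factor axis 5 of 14 were higher and 1 lower, with Igfbp1 far ahead of Igfbp7 (0.96) and Igfbp3 (0.53). A dimmer Igfbp3 probe set differed by -0.07 (adjusted p = 0.34). Without day 8 replicates 1, 3 and 5, Magel2 (0.66), Igf2r (0.25), Igfbp7 (0.64) and Igfbp3 (0.40) also lost the call.

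The listed components of developmental signalling moved in both directions, with more rises than falls, as over all genes (21.1% higher, 13.0% lower). The TGF-beta and BMP list had 29.3% higher and 2.44% lower, the WNT list 24.4% and 9.76%, and the NOTCH list 16.7% and 5.56%. For TGF-beta and BMP signalling 12 of 41 genes were higher and 1 lower (10 and 5 after quantile normalization, 4 and 0 without day 8 replicates 1, 3 and 5). The Nodal pathway genes Nodal, Tdgf1, Gdf3 and Lefty1 are not counted in this list. They fell and are given further below. The inhibitors of differentiation Id4 (1.37 ± 0.16) and Id2 (1.14 ± 0.29), the TGF-beta-induced matrix protein Tgfbi (1.05 ± 0.15) and the activin antagonist Fst (0.79 ± 0.22) led, the receptors Bmpr1a (0.66) and Tgfbr1 (0.56) and the shared mediator Smad4 (0.65) rose, and Tgfb1 (-0.26) fell. For WNT signalling 10 of 41 were higher and 4 lower, an excess that was gone after quantile normalization (7 and 7) and median centring (6 and 8). The secreted antagonists Dkk2 (1.72 ± 0.16, adjusted p = 2.38e-08) and Frzb (0.60 ± 0.11) and beta-catenin (Ctnnb1, 0.77 ± 0.24) rose. Axin2, a target that reports pathway activity, fell by 0.23. For NOTCH signalling 3 of 18 were higher and 1 lower: the protease Adam10 (1.22) and Dlk1 rose, the ligand Dll1 passed narrowly at 0.13, and the ligand Jag2 fell (-0.78 ± 0.11, adjusted p = 1.17e-05). Dll1 turned to -0.02 with the mean of its probe sets, and Id2 (0.36), Ctnnb1 (0.50) and Adam10 (0.68) no longer passed without day 8 replicates 1, 3 and 5. Fst did not pass with 3 of the 6 day 8 arrays, at 0.89 (adjusted p = 0.0503) without replicates 1, 3 and 5 and 0.68 (adjusted p = 0.0599) without replicates 2, 4 and 6.

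Blood, vessel and immune cell genes moved in both directions. Of 33 genes of macrophages and leukocytes 12 were higher and 3 lower (8 and 5 after quantile normalization, 4 and 1 without day 8 replicates 1, 3 and 5). The receptor for macrophage colony-stimulating factor, Csf1r, went from a median of 1446 (1299.5 to 1683) to a median of 2326 (2229 to 2563) with no overlap (0.70 ± 0.07, adjusted p = 4.88e-08), and the mannose receptor Mrc1 rose by 0.98 ± 0.14. A second, dimmer Csf1r probe set differed by 0.33 (adjusted p = 0.122). Adgre1 (0.43), Mpeg1 (0.40) and C1qb (0.29) rose by less than 2-fold, the myeloid factor Spi1 (-0.28) and Marco (-0.25) fell, and Ptprc, the pan-leukocyte gene, did not pass (0.12). Among 22 endothelial genes 7 were higher and 5 lower (6 and 6 after quantile normalization). The angiopoietin receptor Tek (0.78 ± 0.17) and Lyve1 (0.57 ± 0.05), a marker of lymphatic and yolk sac endothelium, rose, whereas Tie1 fell on its brightest probe set (-0.60 ± 0.10) and rose on a dimmer one (0.44, adjusted p = 0.0181). Eng fell by 0.50, and Pecam1, which is also an ES cell gene, by 0.17. Of 20 erythroid genes 2 were higher and 3 lower (1 and 8 after quantile normalization or median centring). Hbb-b2, an adult beta-globin, rose from a median of 314 (179.9 to 371) to a median of 983 (589 to 1587), a log2 difference of 1.80 ± 0.17 (adjusted p = 3.72e-08), while the embryonic globins Hba-x (-0.83, adjusted p = 0.119) and Hbb-y (-0.74, adjusted p = 0.179) did not pass and Hbb-bh1 fell by 0.26. Probe sets of near-identical globin genes can pick up each other's transcripts, so the split among beta-globins is uncertain. Tek (0.41) and Hbb-bh1 (-0.08) lost the call without day 8 replicates 1, 3 and 5.

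For antigen presentation 4 of 13 genes were higher and 1 lower (1 and 5 after quantile normalization). The class I light chain B2m lay at a median of 4086 (3784 to 4871) at day 8 and a median of 7263 (6045 to 10151) at day 14, a log2 difference of 0.84 ± 0.16 (adjusted p = 0.000206). On their brightest probe sets H2-D1 and H2-K1 rose by 0.45 and 0.34, which did not pass under quantile normalization. Of 27 alternatives, H2-D1 lost the call in 8 and H2-K1 in 13. Dimmer probe sets of H2-D1 (0.21 and 0.16) and H2-K1 (0.31 and -0.01) did not pass. Class I genes are near-identical to each other, so their separate values are uncertain. Interferon response genes gave 4 of 20 higher and 2 lower (2 and 3 after quantile normalization), near the shares of all genes (21.1% and 13.0%). Among them were Ifit2 (1.26 ± 0.20) and Ifitm3 (-0.56 ± 0.14). For the lysosome list 9 of 34 were higher (26.5%, against 21.1% of all genes) and 1 lower (7 and 6 after quantile normalization), led by Laptm4a (0.66) and Tpp1 (0.56). Of 28 epithelial genes 7 were higher (25%) and 3 lower (10.7%), near the shares of all genes (5 and 7 after quantile normalization). The desmosome gene Dsp (1.12 ± 0.32) and Krt20 (1.03 ± 0.18) rose, and Krt8 (0.04), Krt18 (0.04), Epcam (-0.06) and Cdh1 (0.11) did not pass. The calls for H2-D1 (0.18), H2-K1 (0.13), Ifitm3 (-0.40), Laptm4a (0.39), Tpp1 (0.29) and Dsp (0.58) were lost without day 8 replicates 1, 3 and 5.

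More genes of lipid synthesis rose than fell, and their number varied with the day 8 arrays used. Of 21 genes of cholesterol and fatty acid synthesis 11 were higher and 1 lower, with a median of 0.26, but 1 and 1 without day 8 replicates 1, 3 and 5. Hmgcs1, an early enzyme of the cholesterol pathway, lay at a median of 2826 (1744 to 5854) at day 8 and a median of 7398 (5864 to 9068) at day 14 with no overlap (1.25 ± 0.37, adjusted p = 0.0106), and Cyp51 (1.10 ± 0.30) and the desaturase gene Scd2 (1.09 ± 0.19) rose too, also with no overlap. The calls for Hmgcs1 (0.83), Cyp51 (0.62) and Sc5d (0.27) were lost without those 3 arrays. Sqle (0.45), Fasn (0.49) and Sc5d (0.83) rose, Ebp (-0.75) fell, and Fdft1 (-0.07) and Insig1 (0.00) did not pass. Promoter windows were also read for TCAC and CCAC with 1 free base between them, without mismatch. These letters were found in 1 of the 16 genes of the list with a window (6.25%) and in 108 of 6576 genes over all (1.64%). Of 27 glycolysis and hypoxia genes 6 were higher (22.2%, near the 21.1% of all genes) and 1 lower (3.7%, against 13.0%). Ero1a (1.01 ± 0.18), P4ha2 (0.69 ± 0.09), whose protein hydroxylates collagen and of which a dimmer probe set differed by 0.01 (adjusted p = 0.979), and Vegfa (0.51 ± 0.11) rose, hexokinase Hk1 fell (-0.58 ± 0.10), and Slc2a1 (0.36), Pgk1 (0.11) and Pkm (-0.08) did not pass.

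In oxidative phosphorylation, falls outnumbered rises. Of 53 nuclear genes for subunits of the respiratory chain and ATP synthase, 29 were lower and 4 higher at day 14, with a median of -0.37, and in 21 all day 14 arrays lay below all day 8 arrays, against 6.31% of all genes. The count was 33 lower and 4 higher without day 8 replicates 2 and 4, and 15 and 0 without replicates 1, 3 and 5. Atp5k, a small subunit of ATP synthase, went from a median of 1352 (1059.7 to 1521) to a median of 714 (635 to 778), a log2 difference of -0.89 ± 0.14 (adjusted p = 4.36e-05), Cox4i1, a subunit of cytochrome oxidase, from a median of 2709 (1629 to 3995) to a median of 1458 (1379 to 1614), a log2 difference of -0.86 ± 0.16 (adjusted p = 0.000216), and the complex I gene Ndufb9 fell by 0.84 ± 0.12 (adjusted p = 7.58e-06). Cox4i1 lost the call without day 8 replicates 1, 3 and 5 (-0.45, adjusted p = 0.0563), and a dimmer probe set of it differed by 0.03 (adjusted p = 0.823). The members that rose were Sdha (0.65), Cox5a (0.41), Ndufs4 (0.21) and Atp5a1 (0.14). Promoter windows were also read for GCGCA and GCGC with 1 free base between them, letters described for the NRF1 factor. Here too a match is neither a shown binding site nor a cause. Without mismatch and on either strand, the letters were found in 11 of the 42 genes of this list with a window (26.2%). They were found in 6 of its 22 lower members with a window (27.3%) and in 655 of 6576 genes over all (9.96%). In the 120 bases before the start of Atp5k they lie 50 bases upstream, in capitals:
Atp5k, chr5:108434400-108434519, minus strand: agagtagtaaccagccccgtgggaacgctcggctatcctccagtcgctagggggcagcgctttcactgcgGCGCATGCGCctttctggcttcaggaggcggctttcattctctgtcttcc

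Genes of the antioxidant and glutathione system also fell more often than they rose, 12 against 6 of 27 (13 against 3 after quantile normalization). Gpx4, the peroxidase that reduces lipid peroxides, went from a median of 4484 (3016 to 6874) to a median of 1749 (1624 to 2637) with no overlap (-1.31 ± 0.19, adjusted p = 8.27e-06), Gsta4 fell by 1.30 ± 0.22 and Gstp1 by 0.78 ± 0.15, while Mgst1 rose (0.99 ± 0.20). Of 30 cytosolic ribosomal proteins 11 were lower and 2 higher (18 and 1 with median centring, 10 and 0 without day 8 replicates 1, 3 and 5), among them Rpl13a (-0.70 ± 0.11), Rps10 (-0.68 ± 0.11) and Rpl19 (-0.55 ± 0.07), all with no overlap. Many ribosomal protein genes have near-identical pseudogenes, so a probe set may pick up more than 1 transcript. Among 44 genes of ribosome assembly 7 were lower (15.9%, near the 13.0% of all genes) and 1 higher (17 and 1 after quantile normalization). At the preceding step, by contrast, 31 of them had fallen from day 4 to day 8. Nhp2 (-0.65 ± 0.11) and Rpf2 (-0.48 ± 0.16) fell and nucleolin (Ncl, 0.46 ± 0.13) rose at day 14. Dimmer probe sets of Rpl19 (-0.13, adjusted p = 0.111) and Rpf2 (-0.26, adjusted p = 0.349) did not pass. Gstp1 (-0.49), Mgst1 (0.45) and Ncl (0.39) lost the call without day 8 replicates 1, 3 and 5, and so did Rpf2 with a difference of -0.45, close to that over all arrays.

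A small set of genes was higher at day 8 than at both day 4 and day 14. Of these 163 genes, 140 met the same rule without day 8 replicates 2 and 4, and 39 without replicates 1, 3 and 5. S100a10, the annexin A2 light chain, lay at a median of 1590.2 (1248 to 2478) at day 4, a median of 3726 (3249.7 to 4256) at day 8 and a median of 1866 (1486 to 2044) at day 14. The day 8 arrays were above all arrays of both neighbouring groups but below the ES cells on gelatin, which had a median of 5876 (5079 to 6279), and the fall after day 8 (-1.04 ± 0.14, adjusted p = 3.18e-06) passed under all alternatives, though a dimmer probe set differed by -0.11 (adjusted p = 0.385). Cldn6, a tight junction gene of embryonic epithelia, went from a median of 1988 (1522 to 2938) to a median of 1081 (799.6 to 1244) with no overlap (-0.97 ± 0.28, adjusted p = 0.0105), after a rise of 2.04. With 3 of the 6 day 8 arrays it did not pass, at -1.11 (adjusted p = 0.0514) without replicates 1, 3 and 5 and -0.83 (adjusted p = 0.0709) without replicates 2, 4 and 6. Tnnc1, the slow and cardiac troponin C, fell from a median of 751 (469 to 885) to a median of 369 (276 to 491), a log2 difference of -0.96 ± 0.15 (adjusted p = 1.87e-05), again after a rise (1.88), with slight overlap. Over the cardiac list 4 of 30 genes were higher and 4 lower (1 and 6 after quantile normalization). Besides Tnnc1, the atrial light chain Myl4 (-0.59) and Cox7a1 (-0.80) fell, the gap junction gene Gja1 rose (0.55 ± 0.12), and Tnnt2 (0.65), Myh6 (0.38), Actc1 (0.24) and Nkx2-5 (-0.11) did not pass. Skeletal muscle genes gave 3 of 17 lower and none higher (6 lower after quantile normalization): Mylpf (-0.94 ± 0.15), Acta1 (-0.82 ± 0.28) and Tnnt1 (-0.70 ± 0.17). Cox7a1 (-0.31), Gja1 (0.33) and Acta1 (-0.55) also lost the call without replicates 1, 3 and 5, and Myl4 without replicates 2 and 4 (-0.36). Tnnt1 lost it too without replicates 1, 3 and 5 (adjusted p = 0.0559), but with a difference of -0.66, close to that over all arrays.

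Several peaks rested on a part of the day 8 arrays. Eif2s3y, a Y-linked translation factor gene, had signals of 2447, 579, 2608, 358, 2434 and 366 in day 8 replicates 1 to 6 and a median of 332 (251 to 382) at day 14. Replicates 1, 3 and 5 were high, replicate 2 was above every day 14 array and replicates 4 and 6 lay within the day 14 range. The difference of -1.66 shrank to -0.38 without replicates 1, 3 and 5 and did not pass (adjusted p = 0.516). Crxos, a homeobox gene of the early embryo, showed the same 3 arrays high, with 385, 74.7, 389, 62.5, 417 and 75.3 in order against a median of 62.6 (59.1 to 67.1) at day 14 (-1.41, and -0.17 with adjusted p = 0.301 without them). The other arrays were close to the floor of 59.6. Frg1 went from -1.35 over all arrays to -0.72 without those 3 (adjusted p = 0.0243), and the ribosomal protein gene Rpl39l from -0.78 to -0.38 (adjusted p = 0.00892), and both still passed. In Acyp1 all 6 day 8 arrays lay above every day 14 array, and the difference went from -1.01 to -0.81 and did not pass (adjusted p = 0.112). In the trophoblast list 5 of 14 genes were lower and 1 higher, and Rhox5 (-0.76 ± 0.24), Rhox6 (-0.41 ± 0.13) and Plac1 (-0.38 ± 0.09) were among the genes that peaked at day 8, and Tfap2c fell by 0.57 ± 0.14. With day 8 replicates 1, 3 and 5 left out, Plac1 still passed (-0.36) and Rhox5 (-0.48), Rhox6 (-0.34) and Tfap2c (-0.38) did not, and a dimmer Plac1 probe set rose by 0.27 (adjusted p = 0.028).

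**Figure D4:**
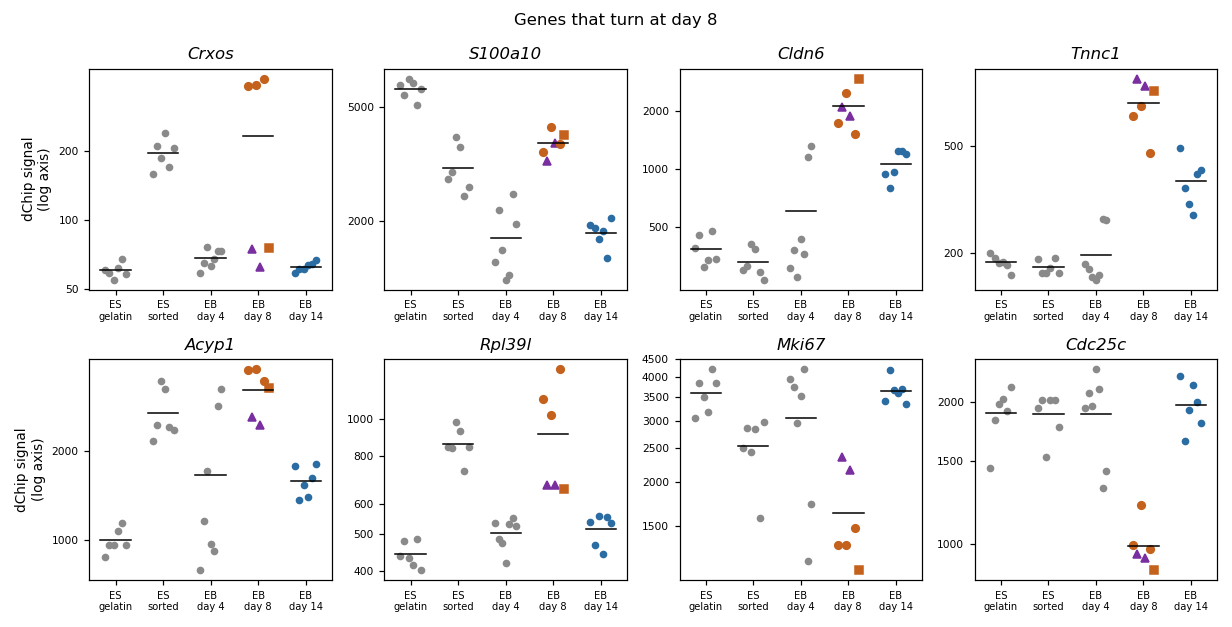
Signal of 8 genes that turn at day 8, in every array on a log axis, with symbols as in the plot of rising genes. Crxos, S100a10, Cldn6, Tnnc1, Acyp1 and Rpl39l were higher at day 8 than at day 4 and lower at day 14. Mki67 and Cdc25c were lower at day 8 than on either side. In Crxos only day 8 replicates 1, 3 and 5 are high.

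Cell cycle genes formed the opposite pattern in part. Mki67, the proliferation antigen, lay at a median of 3524 (1189 to 4215) at day 4, a median of 1397 (1118 to 2354) at day 8 and a median of 3638 (3353 to 4192) at day 14. No day 14 array overlapped day 8, and the rise was 1.22 ± 0.24 (adjusted p = 0.00032) after a fall of 0.84. In day 4 replicates 6 and 7 the Mki67 signal was 1189 and 1725, within the range of day 8, and without these arrays the fall from day 4 to day 8 was -1.22. The mitotic phosphatase Cdc25c followed the same course, with a median of 963 (879 to 1206) at day 8 and a median of 1959.7 (1649.8 to 2269) at day 14, a log2 difference of 0.99 ± 0.12 (adjusted p = 1.01e-06), and the cytokinesis genes Kif23 (0.73 ± 0.07) and Racgap1 (0.67 ± 0.17) rose from day 8 to day 14. The mitosis list as a whole was mixed, with 10 of 38 higher and 7 lower (7 and 7 with median centring), and Ccnb2 (-0.62), Cdk1 (-0.38) and Birc5 (-0.29) fell. DNA replication genes were likewise mixed, 9 higher and 10 lower of 44: the kinase Cdc7 (1.00 ± 0.22) and Mcm4 (0.56) rose, and Rpa3 (-0.85 ± 0.13), Mcm5 (-0.85 ± 0.14) and Orc6 (-0.73 ± 0.11) fell, though a second Mcm5 probe set differed by 0.14 (adjusted p = 0.411). In the list of cell cycle inhibitors and senescence 9 of 25 were higher and 3 lower (6 and 6 after quantile normalization, 2 and 1 without day 8 replicates 1, 3 and 5). The leading members, Ccnd2 (1.46 ± 0.17) and Ccnd1 (1.16 ± 0.24), are D-type cyclins that promote the entry into S phase and not inhibitors. Cdkn1c and the growth-arrest gene Gas1 (1.12 ± 0.13) rose beside them, and the p53 targets Cdkn1a (-0.61) and Mdm2 (-0.32) fell. A dimmer Ccnd1 probe set was lower at day 14 (-0.19, adjusted p = 0.00712). Racgap1 (0.52), Cdc7 (0.75), Cdkn1c (0.70) and Ccnd1 (0.64) lost the call without day 8 replicates 1, 3 and 5.

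Most pluripotency genes were lower at day 14 than at day 8. Of 39 measured, 26 were lower at day 14 than at day 8 and none was higher, against 13.0% of all genes lower, with a median difference of -0.55. In 15 all day 14 arrays lay below all day 8 arrays, against 6.31% of all genes. The number called lower was 30 without day 8 replicates 2 and 4, 13 without replicates 1, 3 and 5, and 30 without day 4 replicates 6 and 7. Zfp42 (encoding REX1), a zinc finger gene of naive ES cells, had the largest fall. Its day 8 signals were 5825, 716, 6845, 635, 7452 and 729.6 in replicates 1 to 6, and the day 14 arrays lay at a median of 262 (224 to 626). Replicates 1, 3 and 5 lay within the range of the Oct4-GFP sorted ES cells (a median of 8115 (5058 to 9032)), and replicates 2, 4 and 6 lay within that of the ES cells on gelatin (a median of 664 (549.5 to 845)) and above every day 14 array. The mean difference was -2.82 ± 0.52 (adjusted p = 0.000184), and -1.19 (adjusted p = 0.0361) without replicates 1, 3 and 5.

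The core factors did not move together. Nanog went from a median of 5987 (4571 to 8087) to a median of 2198 (1472 to 3937) with no overlap (-1.40 ± 0.23, adjusted p = 5.59e-05), and a second probe set fell by 0.97. Pou5f1 had already fallen from day 4 to day 8 (-1.575, limma adjusted p = 4.06e-05, and -1.928 without day 4 replicates 6 and 7). The ES cells on gelatin had Pou5f1 signals of 3908 to 5253, above every day 8 array. From day 8 to day 14, Pou5f1 went from a median of 1613 (949 to 2747) to a median of 969 (691 to 1485). For this later step it overlapped between the groups and did not pass (-0.60 ± 0.26, adjusted p = 0.0814). That call changed with quantile normalization, median centring, array weights, or the removal of day 8 replicate 2 or 4, each of which put Pou5f1 past the threshold. Pou5f1 also passed without day 4 replicates 6 and 7 (adjusted p = 0.0291), with the difference unchanged at -0.60. Those 2 arrays had Pou5f1 signals of 2407 and 2617, and the other day 4 arrays 5340.5 to 6651, a spread that enters the test. The difference without day 8 replicates 2, 4 and 6 was -1.19 (adjusted p = 0.00107), and without replicates 1, 3 and 5 it was -0.01 (adjusted p = 1), so the value rested on which day 8 arrays were used. A dimmer Pou5f1 probe set was 0.17 higher (adjusted p = 0.0213). Sox2 did not pass (0.27 ± 0.14, adjusted p = 0.144), its day 8 arrays at a median of 5120.1 (3801 to 6075) and its day 14 arrays at a median of 5653 (5195 to 7220.5). SOX2 is also a factor of neural progenitors. Klf4 (0.04), Klf5 (0.01) and Tbx3 (-0.18) did not pass.

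To ask which ES cell genes were lost only now, each day was set against the ES cells on gelatin from which the EBs were seeded. At day 8, 13 of the 39 genes were lower than in these cells and 13 were higher, and at day 14, 24 were lower. A set of 9 genes was lower at day 14 than at day 8 and than on gelatin, with no fall called from gelatin to day 8. Of all 8251 genes, 399 (4.84%) met the same rule. The 9 were Dppa3, Dppa5a, Esrrb, Fbxo15, Fgf4, Klf2, Mybl2, Tfcp2l1 and Utf1. Day 4 did not enter the rule. From day 4 to day 8, Dppa3 (-0.81, limma adjusted p = 0.0165) and Mybl2 (-0.52, adjusted p = 0.00117) had already fallen. So had Tfcp2l1 without day 4 replicates 6 and 7 (-0.72, adjusted p = 0.000454). Of the 39 genes, 15 were lower and 1 higher at day 8 than at day 4, against 13.0% of all genes lower. Dppa3 (Stella), a maternal and germ cell factor, lay at a median of 664 (367 to 841) on gelatin, a median of 1039 (592 to 1692) at day 8 and a median of 167 (133 to 382) at day 14, a log2 difference of -2.41 ± 0.26 (adjusted p = 1.77e-07). Fbxo15, a target of OCT4 and SOX2, went from a median of 2806 (1431 to 5212) to a median of 599.8 (377 to 1376), a log2 difference of -2.08 ± 0.29 (adjusted p = 5.45e-06). Both had no overlap, and Fbxo15 on gelatin was at a median of 1513 (1353 to 1692), at the lower end of its day 8 range. The RNA-binding protein gene Dppa5a fell by 1.81 ± 0.23 and the growth factor gene Fgf4, whose signal drives ES cells toward lineage commitment, by 1.51 ± 0.23. The smaller falls were those of Klf2 (-1.06 ± 0.18), Tfcp2l1 (-0.74 ± 0.20), Utf1 (-0.54 ± 0.11), Mybl2 (-0.51 ± 0.12) and Esrrb (-0.24 ± 0.06), of which Tfcp2l1 and Mybl2 each had a dimmer probe set that did not pass (-0.10 and -0.08) and Esrrb was dim. A further 8 genes were lower at day 8 than on gelatin and lower again at day 14 than at day 8. Another 5 were lower at day 8 than on gelatin with no further call.

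The reference decided part of this list. Against the Oct4-GFP sorted ES cells 11 genes met the rule (566 of all genes, 6.86%), of which Esrrb, Klf2 and Utf1 are among the 9, and against both groups pooled 17 did. In the ES cells on gelatin the Gapdh ratio of 3' over 5' signal was 5.22 ± 1.55 (mean ± SD, n = 6), above the 2.31 and 2.43 of the EBs, and the part of RNA integrity in the gelatin levels was not tested. Without day 8 replicates 1, 3 and 5 the list shortened to Dppa3, Dppa5a, Fbxo15, Klf2 and Zfp42, and without replicates 2 and 4 it held 17 genes. In 8 of the 9 genes replicates 2 and 4 were the day 8 arrays nearest to day 14, and in 8 of 9 replicates 1, 3 and 5 were the farthest.

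**Figure D5:**
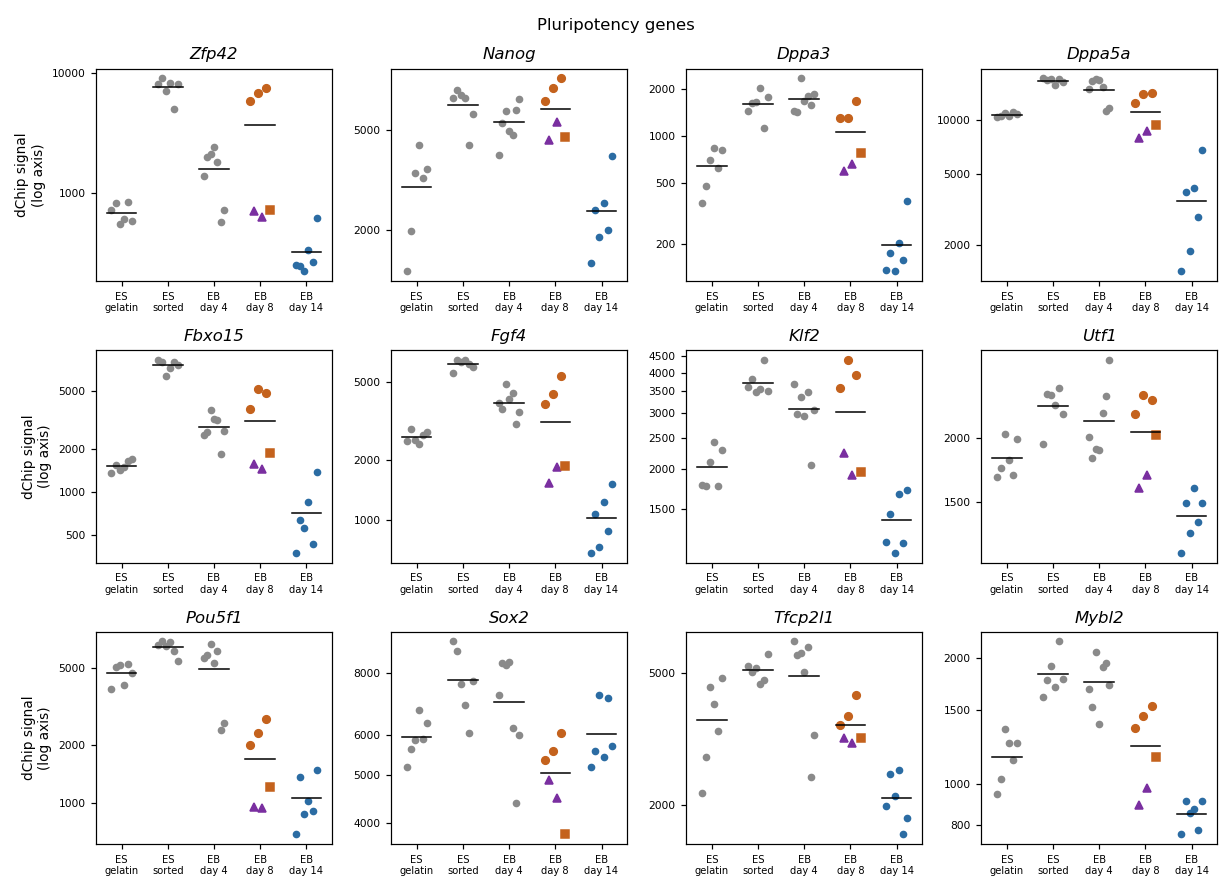
Signal of 12 pluripotency genes in every array, on a log axis, with symbols as in the plot of rising genes. In Zfp42, Dppa3 and Fbxo15 the day 14 arrays lie below all day 8 arrays, whereas Pou5f1 and Sox2 overlap between day 8 and day 14. Day 8 replicates 2 and 4 (purple) lie nearest to day 14 in most panels.

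Other genes with large falls were expressed with these in ES cells and the germ line or outside the lists. Dppa2 fell by 2.00 ± 0.33, Dppa4 by 1.77, the sex-determination gene Dmrt1 by 1.69 ± 0.22, the phospholipase gene Pla2g10 by 1.72 ± 0.23 and the ribosomal protein gene Rps4l by 1.90 ± 0.24, a dimmer probe set of which did not pass (-0.12). Fabp3, a fatty acid binding protein gene, fell by 1.54 ± 0.34 and lost the call without day 8 replicates 1, 3 and 5 (-0.95, adjusted p = 0.137). The Nodal pathway genes Tdgf1 (-1.07), Gdf3 (-1.12), Nodal (-0.90) and Lefty1 (-0.68) fell too. In the primitive streak list 5 of 17 were higher and none lower (3 and 1 after quantile normalization), led by Pdgfra (1.00 ± 0.14, adjusted p = 5.18e-06), whereas Mesp1 (-0.05), Evx1 (-0.07) and Gsc (-0.20) did not pass, and Eomes (0.23) turned to -0.15 with the mean of its probe sets. The germ cell list had 2 of 14 lower, Dppa3 and the meiosis gene Stra8 (-0.39), and 1 higher, Prdm1 (0.42), with 5 lower after quantile normalization and 8 with median centring. Hox genes gave 3 of 23 higher and 3 lower (2 and 4 after quantile normalization), with Hoxc6 (0.38), Hoxc5 and Hoxc8 higher and Hoxc4 (-0.22), Hoxd9 and Hoxa9 lower. Of 14 nephric and urogenital genes 3 were higher and none lower (1 and 1 after quantile normalization), led by Gata3 (0.57). Eomes (0.08), Stra8 (-0.27), Prdm1 (0.28) and Gata3 (0.39) no longer passed without day 8 replicates 1, 3 and 5, and no gene of the Hox list was called in either direction, with Hoxc6 (0.30), Hoxc8 (0.15) and Hoxc4 (-0.14) smaller and Hoxc5 (0.37) as large as over all arrays.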

How the data were processed

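Gene activity was measured in EBs at day 14 and day 8 (6 arrays each) and, for the time course, in EBs at day 4 (7 arrays), ES cells on gelatin (6) and Oct4-GFP sorted ES cells (6). Groups and replicate numbers were taken from the sample titles. The study's methods list 12 days where the labels give 14, and the labels were followed. They state 6 biological samples per time point.

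A two-round linear amplification preceded labelling. The deposited values are signal intensity on a linear scale, which the authors had normalized between arrays and summarised per probe set with dChip. The dChip version and model are not given in the sources used here, and the table holds no detection calls, so the number of arrays limits the precision. Such amplification favours the 3' end of transcripts.

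After removal of 66 controls from 12488 probe sets, 12422 were tested. Genes were named from probe sets with 1 gene symbol in the platform annotation (10833 probe sets; 396 carry several and 1193 none) and each of the 8251 genes is given by its brightest one over all arrays. Of 387128 values 104 are exactly 0. Values under the 5th percentile (59.6) were raised to it and log2 transformed. All 31 arrays entered 1 linear model with a mean per group (limma 3.58.1 in R 4.3.3, with eBayes moderation and its trend option), and p-values were adjusted by the Benjamini-Hochberg method over all tested probe sets at 0.05. Further steps used Python 3.11.15, and figures matplotlib 3.10.9. The fit was tested on simulated arrays, day 14 against day 8. It recovered 46 of 67 simulated log2 changes of 0.5, 65 of 67 of size 1 and 66 of 66 of size 2. There were 16 false calls among the unchanged ones of the 12422 probe sets. The simulated noise was normal, independent between probe sets and equally wide in all groups, unlike the uneven day 8 arrays. The simulation therefore does not give the rate of false calls in these data.

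The members and the 38 gene lists (1250 entries, 1019 measured) were chosen with earlier results of these data known. Named genes are the 10 with the largest difference in each direction among called genes whose groups do not overlap, the 6 still rising and the 8 peaking at day 8 with the largest smaller step, every pluripotency gene lost only after day 8 together with Pou5f1, Nanog, Sox2 and Zfp42, and up to 4 called members of each list with the largest difference. Other list members were named as examples after their values were seen. The alternatives tried were other scalings (quantile normalization, median centring), other floors (1st or 25th percentile, or an offset), omission of the dimmest 40% of probe sets, a fit of the 12 arrays alone, array weights, the replicate number as a block, eBayes without the trend, gene means over probe sets, a 2-fold minimum, other ES cell references and leaving out each array. Leaving out day 8 replicates 2 and 4, these and 6, or 1, 3 and 5, and day 4 replicates 6 and 7, was chosen after the data were seen. Promoter sequences are from RefSeq (GRCm38.p6). No genome was used.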

Additional observations from a re-analysis of the deposited data

Results flagged for a closer look

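Among the 166 named genes, 28 groups of 6 arrays held 1 array far from the others, out of 332 groups tested, and about 1 group in 20 is expected to by chance. Day 8 replicate 2 was the high array for Ptn (509.1 against 31.02 to 140.3 in the others), Postn (2569, others up to 1098), Tspan8 (912.5, others up to 418.7), Nr2f2 (358.7), Pdzk1 (478.3), Cd53 (362.6) and B2m (4871). In each of these genes its signal was the day 8 value nearest to day 14. Other day 8 arrays that stood apart were replicate 6 for Foxa2 (1372), replicate 1 for Hbb-bh1 (2472) and replicate 3 for Cdc25c (1206).

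Day 14 replicate 6 was the high array for genes that fell after day 8: Zfp42 (625.9 against 224.1 to 336.2 in the others), Dppa3 (381.8, others up to 202.9), Rhox6 (1794), Stra8 (365.3), Rpa3 (1556), Nhp2 (5066), Ndufb8 (1301), Gpx4 (2637), Gsta4 (1384) and Gstp1 (2874), and the low array for Col3a1 (4575 against 6557 to 7345), which rose. It thus lay toward the day 8 level in these 11 genes. Day 14 replicate 1 was high for Kng1 (3323 against 706.3 to 1529), H2-D1 (2509) and Iigp1 (752.1), replicate 4 was high for Foxa2 (1761) and Hoxc8 (136.9) and low for Rps10 (7964), and replicate 2 was low for Laptm4a (6664).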

How the results depend on the processing

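The larger differences kept their direction, and the counts depended on which day 8 arrays were used. Without day 8 replicates 2 and 4 there were 534 probe sets at least 2-fold higher and 115 lower, 291 genes that peaked at day 8 and 17 pluripotency genes lost only after day 8. Without replicates 2, 4 and 6 these were 615, 151, 276 and 18, and 144 genes were still rising. Without replicates 1, 3 and 5 there were 701 probe sets higher and 476 lower, 79 and 20 at least 2-fold, 143 genes still rising, 60 that peaked and 5 pluripotency genes lost. Without day 4 replicates 6 and 7 there were 2802 probe sets higher and 1737 lower, and 399 genes peaked. Quantile normalization gave 2473 lower probe sets and 16 pluripotency genes lost, median centring 3153 lower, and array weights 2473 lower, 450 at least 2-fold higher, 664 that peaked and 14 lost. With both ES cell groups pooled 17 pluripotency genes were lost, and with ES cells on gelatin in place of day 4, 400 genes peaked. Leaving out each array in turn gave 1931 to 2688 higher and 1143 to 1670 lower, 212 to 380 and 41 to 80 at least 2-fold, 252 to 307 still rising, 111 to 200 that peaked and 8 to 13 lost. Of the named genes Eomes (-0.145) and Dll1 (-0.023) changed sign and no longer passed with the mean of their probe sets, where their dimmer probe sets enter. For the other moves the cause was not tested. Replicate numbers do not pair the arrays: same-numbered day 8 and day 14 arrays correlated at -0.317 to 0.075 after removal of group means, and 0 of 6 day 8 arrays correlated best with its own number. With the replicate number as a block there were 2594 higher and 1552 lower, 275 and 58 at least 2-fold, 362 still rising, 235 that peaked and 9 lost. Dim probe sets near the floor give bounded differences.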
